A study of Mus musculus with 6 samples.

Results

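The respiratory chain subunits encoded in the nucleus were examined at the mRNA level in 22Rv1, a human prostate cancer cell line, and in a 22Rv1 subline selected for resistance to BL-B01D1, an antibody-drug conjugate that binds EGFR and HER3. Members were the protein-coding genes outside the mitochondrial chromosome whose symbols begin with NDUF followed by A, B, C, S or V and a digit, with UQCR, with COX followed by a digit from 4 to 8, or with ATP5, together with SDHA, SDHB, SDHC and SDHD. This rule gave 90 of the 58735 genes in the table, of which 19951 were protein coding. Complex I had 39 members, complex II had 4, complex III had 9, complex IV had 17 and complex V had 21.

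The respiratory chain sits in the inner mitochondrial membrane. Complexes I and II pass electrons from NADH and succinate to ubiquinone, complex III passes them on to cytochrome c, complex IV reduces oxygen, and complex V (ATP synthase) uses the resulting proton gradient to make ATP. Complex II is built entirely from nuclear genes, whereas the other complexes combine nuclear subunits with a few subunits encoded by the mitochondrial genome, so that their assembly draws on both genomes. In prostate cancer cells, as in most proliferating cells, the chain supplies ATP and also regenerates the cofactors that biosynthesis needs.

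The parental group was 22Rv1 cells given vehicle and the resistant group was 22Rv1 cells grown in rising concentrations of BL-B01D1, with 3 libraries of poly(A)-selected RNA each. The study had only 1 resistant subline, so p-values measure only the spread between these samples. Although the organism in the labels is mouse, all 58735 identifiers are those of human Ensembl genes, and the counts were read as human. Counts on genes ranged from 13821639 to 17251491 per library. KRT8, a luminal epithelial keratin, had 509 to 519 CPM in parental and 528 to 547 CPM in resistant libraries (log2 fold change 0.07, FDR 0.0423), where CPM is counts per 1e6 of a library's TMM-normalized size. The 9 markers of immune, stromal and endothelial cells summed to 15.1 to 17.1 CPM in parental and 13.0 to 13.5 CPM in resistant libraries, most of it COL1A1, while CD3E and CDH5 were at 0 in all libraries. The part of this small difference in the results below was not tested.

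As a set, the nuclear subunits differed little between the lines. Their summed CPM was 12812, 12730 and 12679 in parental libraries and 13243, 13170 and 13180 in resistant libraries, a difference of 3.59%. All resistant libraries lay above all parental ones, and the subunits took 1.27% to 1.28% of all counts in parental and 1.31% in resistant cells. In bulk RNA, a change in the number of cells that express a gene cannot be told apart from a change in RNA per cell.

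Of the 90 members, 82 had enough counts for edgeR's quasi-likelihood test, and 26 (31.7%) passed an FDR of 0.05. Of all 17142 genes tested, 35.5% passed, so the share among the subunits was near the background when both directions were pooled. By complex the share was 31.6% (12 of 38) for complex I, 75% (3 of 4) for complex II, 44.4% (4 of 9) for complex III, 16.7% (2 of 12) for complex IV and 26.3% (5 of 19) for complex V. By direction, 19 of the 82 subunits passed as higher in resistant cells and 7 as lower. Of all 17142 genes, 2928 (17.1%) passed as higher and 3153 (18.4%) as lower. Higher calls thus outnumbered lower ones among the subunits but not over all genes. With library size alone in place of TMM, 15 were higher and 9 lower. No subunit passed both the FDR and an absolute log2 fold change of 1, which 5.37% of all genes did. The number was also 0 at an unadjusted p under 0.05 and with limma-voom or DESeq2. The median log2 fold change was 0.05 over the subunits and 0.00379 over all tested genes, and 55 of the 82 subunits had a value above 0.

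The differences were small and, for most subunits, tightly bounded. The log2 fold changes ran from −0.79 to 0.62, and the median of their sizes was 0.0891 against 0.172 over all genes. The 95% interval of the fold change lay within 1.5-fold in either direction for 77 of 82 subunits (93.9%), compared with 63.6% of all tested genes. The exceptions were NDUFA4L2, NDUFA7, NDUFV2, UQCRHL and COX7A1, none of which had more than 228 counts in any library. The subunits were abundant, with a median of 108 CPM against 19.6 CPM over all genes, and the median standard error of their log2 fold changes was 0.0418 against 0.0880. In 21 of the 82 subunits every resistant library exceeded every parental one, and in 10 the reverse held. Of all 17142 tested genes, 3782 lay wholly above and 3906 wholly below, together 44.8%.

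Levels between genes were compared per length, as FPKM (fragments per kilobase of listed gene length, per 1e6 counts). The listed length covers all annotated exons of a gene, so FPKM is too low for genes with many long transcript forms. Among the complex V genes, ATP5F1B, the catalytic beta subunit, had the highest level of any member, at 745 ± 9.39 FPKM in parental and 766 ± 7.73 FPKM in resistant cells (SD, n = 3). COX8A led complex IV at 392 ± 19.8 and 376 ± 20.8 FPKM, and NDUFS5 led complex I at 232 ± 15.4 and 233 ± 13.3 FPKM. UQCRH led complex III at 163 ± 0.971 and 166 ± 2.68 FPKM, and SDHB led complex II at 49.9 ± 1.16 and 44.8 ± 0.926 FPKM. The same gene led each complex in both lines. The median level was 26.2 FPKM for complex I, 34.4 for complex II, 52.9 for complex III, 83.4 for complex IV and 51.6 for complex V in parental cells, and 26.5, 31.7, 53.2, 83.2 and 51.6 FPKM in resistant cells.

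**Figure D1:**
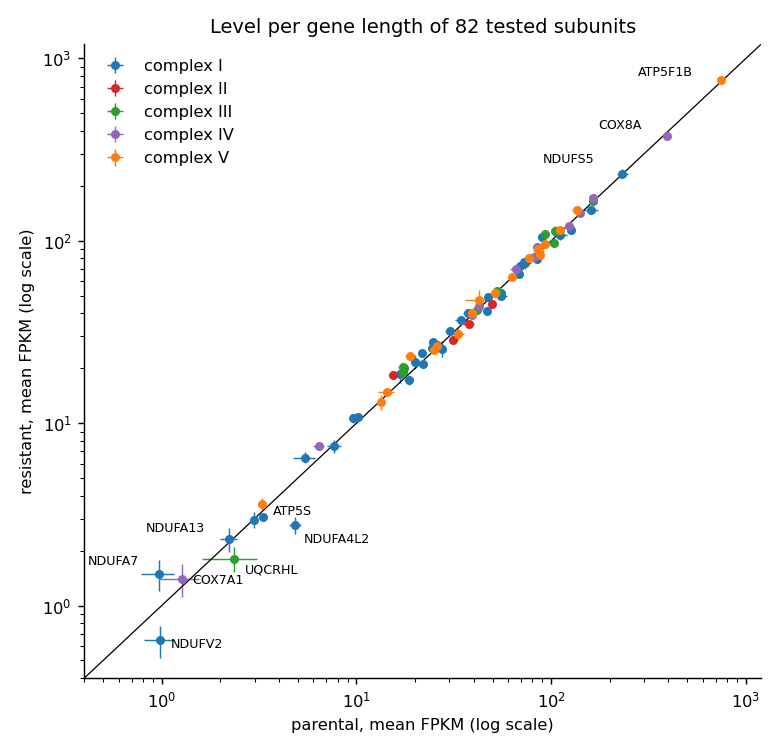
Mean FPKM of the 82 tested subunits in parental (x axis) and resistant (y axis) cells on log scales, with SD bars (n = 3) and a line of equal level. Levels span from under 1 FPKM to 766 FPKM, and the points that stand off the line, such as NDUFA4L2, NDUFV2 and NDUFA7, lie at the low end.

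Complex I, which oxidizes NADH, had 38 tested members, of which 7 rose, 5 fell and 26 did not pass. These 12 were a share near that of all genes (35.5%). The median log2 fold change was 0.0677, which became 0.0258 without parental library 1 and 0.0325 without resistant library 3, and the summed CPM of its genes differed by 3.39%. Its core subunits carry the flavin, the iron-sulfur clusters and the ubiquinone site. In the NADH-oxidizing module, NDUFV1, which binds the flavin, had 283, 273 and 283 CPM in parental and 262, 256 and 271 CPM in resistant libraries, without overlap, and fell by 0.09 on the log2 scale (SE 0.031, FDR 0.0225). NDUFS1, which holds most of the clusters of that module, had 308 to 322 CPM in parental and 321 to 340 CPM in resistant cells (log2 fold change 0.07, FDR 0.0586). In the ubiquinone-reducing module, NDUFS3, NDUFS7 and NDUFS8 did not pass, with log2 fold changes of −0.01, −0.03 and 0.09. The call of NDUFV1 was lost in 4 of the 6 fits that each left out 1 library (FDR up to 0.145).

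NDUFV2, an iron-sulfur protein of the NADH-oxidizing module, was listed at a far lower level than its partners. It had 54, 43 and 31 counts in parental and 26, 32 and 25 counts in resistant libraries, or 0.978 ± 0.165 and 0.645 ± 0.131 FPKM, while its module partners NDUFV1 and NDUFS1 were at 55.5 and 25.8 FPKM in parental cells. Its groups did not overlap in CPM, and its log2 fold change was −0.60 (SE 0.257, FDR 0.0651). The gene, on chromosome 18 of hg38 from 9102630 to 9134345, overlaps the antisense genes NDUFV2-AS1 and AP005899.1, and genes listed as its pseudogenes held 166 counts over the 6 libraries against 211 for NDUFV2 itself. How reads shared with these genes were counted is not given in the sources used here, so its level is uncertain. Without resistant library 2 it passed, with an FDR of 0.0474.

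Among the accessory subunits of complex I, which surround the core and stabilize it, NDUFA10 rose from 166, 166 and 170 CPM to 195, 197 and 188 CPM. Its log2 fold change was 0.21 (SE 0.034, FDR 2.81e-06), and the groups were well apart. NDUFC2, a membrane-arm subunit, had 14.7, 12.4 and 16.1 CPM in parental and 16.0, 17.5 and 18.4 CPM in resistant libraries, which overlapped, and a log2 fold change of 0.27 (SE 0.10, FDR 0.0295). NDUFA2 rose from 38.3, 36.6 and 35.2 CPM to 39.9, 42.1 and 43.6 CPM (log2 fold change 0.19, FDR 0.0188). NDUFA2 overlaps IK and TMCO6 on the opposite strand (log2 fold changes 0.02 and 0.15, neither of which passed). It lies on chromosome 5, where the 80 other tested genes within 1 Mb, among them the clustered protocadherins, had a median log2 fold change of 0.29. Named after their values were seen, NDUFB5 (log2 fold change 0.17, FDR 0.000186) and NDUFB2 (0.11, FDR 0.0314) also rose. Of the accessory subunits that rose, NDUFA10 and NDUFB5 passed in all 6 fits that left out a library, whereas NDUFC2 lost its call in 3 (FDR 0.0745 to 0.222), NDUFA2 in 4 (FDR 0.0525 to 0.0944) and NDUFB2 in 3 (FDR 0.130 to 0.238).

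The accessory subunits that fell were NDUFS4, NDUFB10 and NDUFS6. NDUFB10, of the membrane arm, went from 139, 131 and 136 CPM to 123, 126 and 121 CPM (log2 fold change −0.14, SE 0.038, FDR 0.00366) and passed in each fit that left out a library. NDUFS4, needed for late assembly of the NADH-oxidizing module, went from 52.5, 56.3 and 55.5 CPM to 49.3, 46.6 and 51.3 CPM (log2 fold change −0.16, FDR 0.0284). NDUFS6, also of that module, went from 75.1, 76.6 and 86.7 CPM to 73.8, 72.1 and 71.8 CPM (log2 fold change −0.13, FDR 0.0433). In all 3 the groups did not overlap, but in each the parental libraries were spread more widely than the gap between the groups. The calls of NDUFS4 and NDUFS6 were each lost in 4 of 6 fits that left out a library, with FDR up to 0.160 and 0.381, and that of NDUFS6 also in 7 of 10 other settings.

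NDUFA7 had the highest log2 fold change of any member, 0.62 (SE 0.290), but did not pass (FDR 0.0962). It was counted 21, 28 and 17 times in parental and 28, 37 and 35 times in resistant libraries, which did not overlap after scaling to CPM. It overlaps the ribosomal protein gene RPS28 on the opposite strand (5213 counts in parental library 1, log2 fold change 0.27), and whether counting used strand is not given in the sources used here.

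NDUFA4 and NDUFA4L2, a pair of paralogs, moved in opposite directions. NDUFA4 was named as a complex I subunit and is now assigned to complex IV, and NDUFA4L2 is its hypoxia-inducible relative, a target of HIF1. NDUFA4 had 319, 324 and 313 CPM in parental and 380, 365 and 389 CPM in resistant libraries, and rose with a log2 fold change of 0.25 (SE 0.030, FDR 5.64e-09). NDUFA4L2 had 12.6, 13.6 and 14.4 CPM in parental and 8.26, 8.29 and 6.84 CPM in resistant libraries, and its log2 fold change was −0.79 (SE 0.118, FDR 6.22e-07). For both genes the groups were far apart, and both passed in all fits that left out a library and under all other settings. The fold for NDUFA4L2 was 0.577 (95% interval 0.489 to 0.681), the largest change among the subunits that passed. Its mean FPKM was 4.84 in parental and 2.76 in resistant cells, against 89.9 and 105 for NDUFA4.

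The position of NDUFA4L2 limits this value. The gene lies on chromosome 12 of hg38 from 57234903 to 57240715 and overlaps SHMT2, a serine-glycine enzyme of the mitochondrion, on the opposite strand. SHMT2 held 41197 counts over the 6 libraries and had a log2 fold change of −0.41 (FDR 6.08e-16), in the same direction. NDUFA4L2 rested on 218, 228 and 200 parental and 137, 122 and 111 resistant counts. Without a stated strand setting, reads of the genes in their overlap cannot be told apart. The 57 other tested genes within 1 Mb had a median log2 fold change of −0.05.

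Complex II, succinate dehydrogenase, links the chain to the tricarboxylic acid cycle. Of its 4 subunits 1 rose and 2 fell, and the summed CPM of the genes overlapped between the groups, with 690 to 718 in parental and 709 to 716 in resistant libraries. SDHA, the flavoprotein that oxidizes succinate, had 260, 267 and 254 CPM in parental and 243, 245 and 234 CPM in resistant libraries, and fell by 0.12 on the log2 scale (SE 0.031, FDR 0.00312). SDHB, the iron-sulfur subunit, went from 126, 120 and 121 CPM to 113, 109 and 112 CPM (log2 fold change −0.14, SE 0.039, FDR 0.00397). Both catalytic subunits were therefore lower in every resistant library than in any parental one.

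The membrane anchors of complex II, which hold the heme and the ubiquinone site, differed from each other, and SDHC moved opposite to the catalytic pair. SDHC had 219, 216 and 217 CPM in parental and 266, 256 and 261 CPM in resistant libraries, and rose with a log2 fold change of 0.27 (SE 0.031, FDR 2.88e-09). SDHD had 114, 107 and 98.5 CPM in parental and 94.3, 103 and 102 CPM in resistant libraries, which overlapped (log2 fold change −0.10, SE 0.046, FDR 0.0878). SDHA, SDHB and SDHC passed in all fits that left out a library and under all other settings, whereas SDHD passed without parental library 3 (FDR 0.0121) and with library size alone (FDR 0.0450). SDHC lies on chromosome 1 from 161314257 to 161375340, and the 28 other tested genes within 1 Mb had a median log2 fold change of 0.03. Genes listed as SDHA pseudogenes held 10.5% as many counts as SDHA, and adding such counts to each member gave 19 subunits higher and 7 lower, as before.

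**Figure D2:**
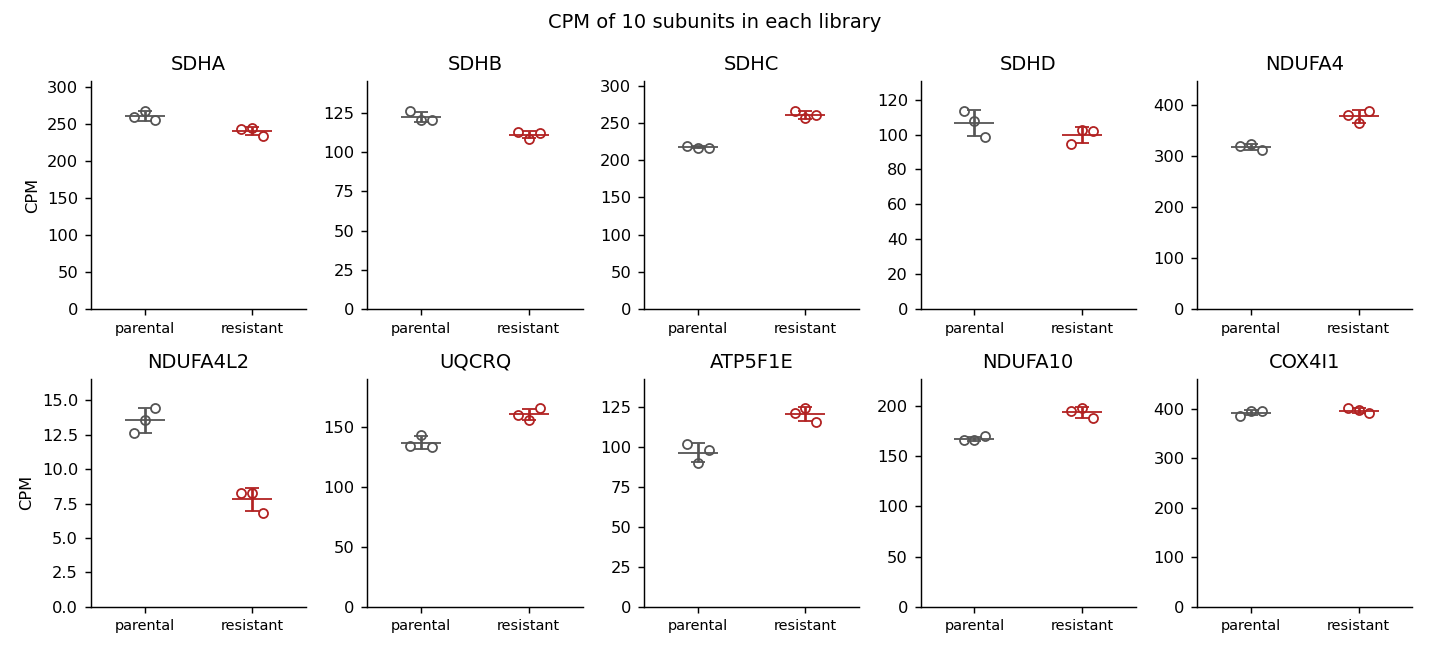
CPM of 10 subunits in each of the 3 parental and 3 resistant libraries (open points), with mean and SD, on axes that start at 0. SDHC, NDUFA4, UQCRQ, ATP5F1E and NDUFA10 were higher and SDHA, SDHB and NDUFA4L2 lower in all resistant libraries, while SDHD and COX4I1 overlapped.

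Complex III had 9 tested members, of which 4 rose and 0 fell in edgeR's test. At an unadjusted p under 0.05, 1 was lower, and limma-voom and DESeq2 each called 0 lower. UQCRC1 passed as lower without parental library 3 (FDR 0.0380) or with library size alone (FDR 0.0309), and UQCRHL without parental library 2 (FDR 0.0175). Those that rose were all among the 5 small subunits without a redox center. UQCR11 went from 39.6, 34.7 and 37.2 CPM to 43.4, 43.4 and 45.2 CPM (log2 fold change 0.24, SE 0.064, FDR 0.00221). UQCRQ, a ubiquinone-binding protein beside cytochrome b, went from 134, 143 and 134 CPM to 160, 156 and 166 CPM (log2 fold change 0.23, SE 0.037, FDR 3.35e-06). UQCRB, another ubiquinone-binding protein, had a log2 fold change of 0.15 (FDR 0.000332) and UQCR10 one of 0.13 (FDR 0.0101). In all 4 the groups did not overlap, and the call of UQCR10 was lost without resistant library 2 (FDR 0.112). UQCRQ lies on chromosome 5, where the 23 other tested genes within 1 Mb had a median log2 fold change of 0.17.

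The other subunits of complex III did not pass. UQCRC1 and UQCRC2, the core proteins, had log2 fold changes of −0.06 (FDR 0.0926) and 0.02 (FDR 0.629), and UQCRFS1, the Rieske iron-sulfur protein that carries electrons to cytochrome c1, one of 0.02 (FDR 0.744). UQCRH, the hinge protein, had 228 to 231 CPM in parental and 231 to 237 CPM in resistant libraries (log2 fold change 0.04, FDR 0.396). UQCRHL, a near-identical copy of UQCRH, had 56 to 95 counts in parental and 54 to 70 in resistant libraries, and since reads can map to either copy its value is uncertain.

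Complex IV, cytochrome c oxidase, had 12 tested members, of which 2 rose and 10 did not pass. The number lower was 0 in edgeR's test, at an unadjusted p under 0.05, and with limma-voom or DESeq2, and the summed CPM differed by 2.52%. COX7A2L, a factor of respiratory supercomplexes, went from 38.0, 33.1 and 36.3 CPM to 41.0, 41.7 and 43.8 CPM (log2 fold change 0.24, SE 0.065, FDR 0.00359). COX7A2, the ubiquitous form of subunit VIIa, went from 165, 165 and 157 CPM to 180, 175 and 183 CPM (log2 fold change 0.14, SE 0.035, FDR 0.000964). Both genes were non-overlapping between the groups, and COX7A2L lost its call without parental library 2 (FDR 0.0504). The other ubiquitous subunits had log2 fold changes from −0.05 (COX8A) to 0.10 (COX6A1). COX4I1, the subunit through which the enzyme is regulated by ATP, had 385, 395 and 395 CPM in parental and 400, 396 and 390 CPM in resistant libraries (log2 fold change 0.01, SE 0.028).

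Complex IV is also where the rule took in tissue-restricted isoforms, and these were nearly silent in both lines. COX4I2, the lung form of COX4, had 1 count in 1 resistant library and COX6A2, the heart and muscle form, none, as had COX7B2. COX6B2, a testis form, had 3, 7 and 6 counts in parental and 5, 1 and 2 in resistant libraries, and COX8C, also of testis, had at most 5 in any library. Of these isoforms COX7A1, the heart and muscle form of COX7A, was alone in passing the filter on low counts. It had 16, 24 and 20 counts in parental and 18, 23 and 26 counts in resistant libraries (log2 fold change 0.17, SE 0.328, FDR 0.741), or 1.26 and 1.40 FPKM against 84.8 and 92.7 FPKM for COX7A2. The other members below the filter were ATP5MGL with 1 count in all and the readthrough genes ATP5MF-PTCD1, with at most 7 counts in a library, and NDUFC2-KCTD14, with none. At these depths, differences in such genes were not detectable.

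Complex V had 19 tested members, of which 5 rose and 0 fell, and its summed CPM differed by 4.43%. The number lower was also 0 at an unadjusted p under 0.05 and with limma-voom or DESeq2, although ATP5PD passed as lower without parental library 2 (FDR 0.0163) or resistant library 2 (FDR 0.0410). In the F1 head, ATP5F1E, the epsilon subunit, went from 102, 90.0 and 97.9 CPM to 122, 124 and 116 CPM (log2 fold change 0.32, SE 0.044, FDR 1.04e-07), the largest rise among all subunits that passed. The catalytic ring changed far less. ATP5F1A and ATP5F1B, the alpha and beta subunits, had 990 to 1026 and 1707 to 1733 CPM in parental libraries and 1040 to 1083 and 1779 to 1816 CPM in resistant libraries, with log2 fold changes of 0.07 (SE 0.024, FDR 0.0229) and 0.06 (SE 0.022, FDR 0.0391). The gamma subunit ATP5F1C, the rotor shaft, had 201 to 206 CPM in parental and 194 to 200 CPM in resistant libraries without overlap, yet did not pass (log2 fold change −0.04, FDR 0.320). The 13 other tested genes within 1 Mb of ATP5F1E, on chromosome 20 from 59025467 to 59032382, had a median log2 fold change of 0.01.

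Outside the F1 head, ATP5MF, a small membrane subunit, went from 291, 311 and 319 CPM to 329, 351 and 339 CPM (log2 fold change 0.15, SE 0.032, FDR 0.000302). ATP5IF1, the inhibitor that blocks ATP hydrolysis when the proton gradient collapses, had a log2 fold change of 0.10 (SE 0.034, FDR 0.0169), with 183, 187 and 197 CPM in parental and 199, 207 and 201 CPM in resistant libraries. None of the 3 c-ring genes (ATP5MC1, ATP5MC2 and ATP5MC3) and none of the 4 peripheral stalk genes (ATP5PB, ATP5PD, ATP5PF and ATP5PO) passed, with log2 fold changes from −0.09 to 0.08. ATP5MF overlaps CPSF4 on the opposite strand (log2 fold change 0.40, FDR 3.11e-10), and reads of the overlap cannot be assigned without a stated strand setting. ATP5F1E passed in all fits that left out a library and under all other settings. ATP5MF passed in all fits that left out a library but not with limma on log2(FPKM + 1) (FDR 0.0541). In the fits that left out a library, ATP5F1A lost its call in 2 (FDR 0.134 and 0.135), ATP5IF1 in 3 (FDR 0.0668 to 0.0975) and ATP5F1B in 4 (FDR 0.0635 to 0.137).

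Complexes I, III, IV and V also hold subunits encoded by the mitochondrial genome, and the difference was larger in these. The summed CPM of the 13 mitochondrial mRNAs was 34982 ± 163 in parental and 45619 ± 1400 in resistant cells (SD, n = 3), a difference of 30.4%, with the groups apart. Of the 13, 12 rose (92.3%), against 17.1% of all tested genes. The median of the log2 fold changes was 0.27, against 0.00379 over all tested genes. By complex, the mitochondrial sum differed by 19.9% in complex I, 33.9% in complex III and 39.8% in complex IV, while the nuclear sum differed by 3.39%, 3.94% and 2.52%. In complex V the mitochondrial sum differed by 5.98% with overlap between the groups, beside 4.43% for the nuclear sum. The difference between the genomes was not itself tested.

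**Figure D3:**
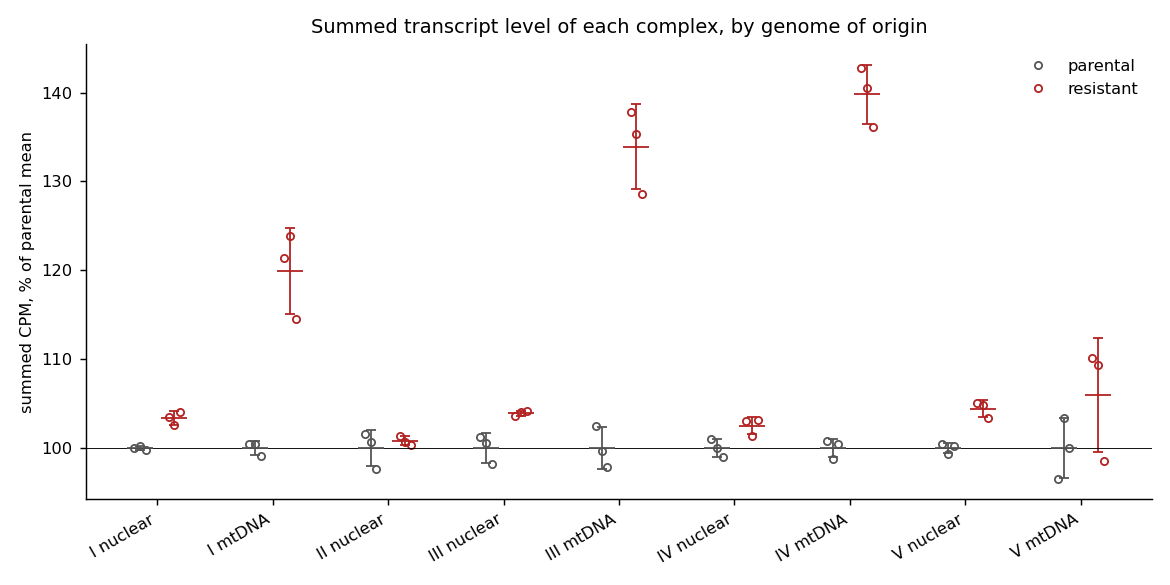
Summed CPM of each complex in each library as a percentage of the parental mean, for nuclear-encoded members and mitochondrially encoded (mtDNA) mRNAs, with mean and SD of 3 libraries. The y axis does not start at 0. Nuclear sums stay within a few percent of parental, while the mtDNA sums of complexes I, III and IV are 19.9% to 39.8% higher.

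Genes that work beside the subunits were described from lists of their own. CYC1 (cytochrome c1), CYCS (cytochrome c) and NDUFAB1, the acyl carrier protein of complex I, did not pass, with log2 fold changes of −0.01, 0.05 and −0.05. Of 48 tested assembly factors, 13 rose and 2 fell, and the median log2 fold change was 0.07. Pooled over both directions these were 31.25% of the list, near the 35.5% of all tested genes. Of all tested genes, 17.1% passed as higher and 18.4% as lower, so rises outnumbered falls in this list but not over all genes. COA3, which assists translation and assembly of COX1, went from 40.8, 39.7 and 43.1 CPM to 61.3, 69.6 and 67.8 CPM (log2 fold change 0.69, SE 0.058, FDR 5.67e-13). The next were NDUFAF8 (0.40, FDR 1.03e-05) and NDUFAF6 (0.35, FDR 0.000404), both complex I factors, while COA7, a complex IV factor, was at −0.26 (FDR 0.000236) and NDUFAF2, a complex I factor, at −0.23 (FDR 0.0121). No subunit of any complex had a rise as large as that of COA3 among those that passed.

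Of 14 tricarboxylic acid cycle genes other than the SDH genes, 2 (14.3%) rose and 0 fell in edgeR's test, against 35.5% of all tested genes in either direction. The counts were the same at an unadjusted p under 0.05 and with limma-voom or DESeq2, and the median log2 fold change was 0.05. Those that rose were DLD, the shared dihydrolipoyl dehydrogenase (0.19, FDR 5.71e-06), and SUCLG2, of the succinyl-CoA ligase (0.18, FDR 0.000785). Of 19 genes that feed electrons to ubiquinone or make it, 4 rose and 8 fell. These 12 were 63.2% of the list. Of all tested genes, 17.1% passed as higher and 18.4% as lower. SQOR, which passes electrons from sulfide to ubiquinone, had 4.12, 4.59 and 4.97 CPM in parental and 2.23, 1.43 and 1.73 CPM in resistant libraries (log2 fold change −1.33, SE 0.223, FDR 5.49e-06). COQ10A (−0.34, FDR 0.0172), which binds ubiquinone, and COQ8A (−0.25, FDR 2.70e-06), an atypical kinase of its synthesis, also fell, while COQ6, COQ10B and COQ4 rose, with log2 fold changes of 0.33, 0.21 and 0.21. Of 11 tested transcription regulators of these genes, 0 rose and 4 fell in edgeR's test, and 0 rose at an unadjusted p under 0.05 or with limma-voom or DESeq2. The 4 were 36.4% of the list. Of all tested genes, 18.4% passed as lower and 35.5% in either direction. GABPB1 and GABPA, the subunits of nuclear respiratory factor NRF-2, had log2 fold changes of −0.25 (FDR 0.00492) and −0.20 (FDR 0.000508), and YY1 had one of −0.24 (FDR 1.06e-07). PPARGC1A, a coactivator of mitochondrial biogenesis, had 4, 12 and 3 counts in parental and 1, 2 and 0 in resistant libraries and was not tested.

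**Figure D4:**
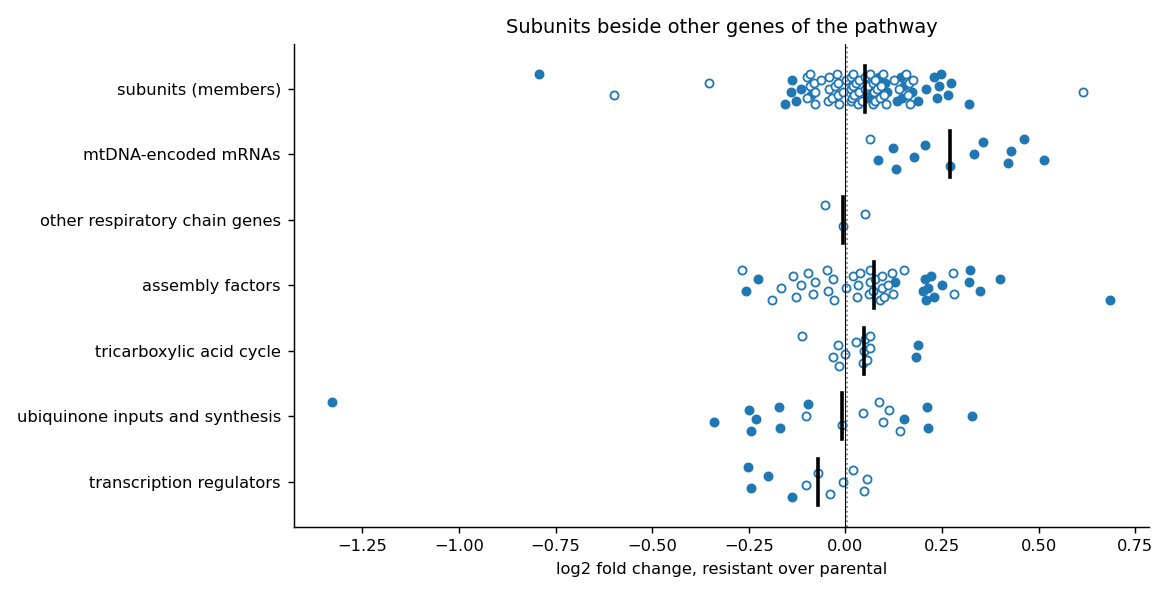
Log2 fold change (resistant over parental) of every tested gene in the subunit set and in each list of related genes, with filled points at FDR under 0.05, a bar at each list's median and a dotted line at the median of all tested genes. The subunits cluster near 0 with a median of 0.05, the mitochondrially encoded mRNAs lie to the right, and SQOR lies alone at −1.33.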

How the data were processed

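Poly(A) RNA of 6 libraries was sequenced on an Illumina instrument. Per the submitters' processing notes, the authors trimmed reads with fastp, mapped them to hg38 with HISAT2 2.0.5 and counted them per gene with featureCounts 1.5.0-p3, and the deposited table gives these counts without normalization, beside each gene's symbol, coordinates, biotype and length. The annotation release and strand setting are not given in the sources used here. The number of unused columns of per-sample values was 0.

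Genes were filtered with edgeR's filterByExpr, which kept 17142, and compared with edgeR 4.0.16 (TMM, quasi-likelihood test, R 4.3.3) with Benjamini-Hochberg adjustment over all tested genes. Standard errors are the log2 fold change divided by the square root of F. FPKM used the deposited gene length as listed, another quantity in that table. The biological coefficient of variation was 3.51%. Alternatives were limma-voom (limma 3.58.1), DESeq2 1.42.0, other scalings, filters and gene sets, log2(FPKM + 1), a replicate block and leaving out each library. Members and lists were chosen with earlier results of these data known. Genes were named as those with the largest and smallest changes among those passing per complex (up to 4 each way) and per list (up to 3 each way), core subunits, SDH genes, isoforms and untested members, and others are marked or complete a group. Summary values carry no test. Some genes that these rules select are not reported here. No human sequence was used here.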

Additional observations from a re-analysis of the deposited data

How the results depend on the processing

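No value that passed the test, under any setting, had the opposite sign elsewhere, although values near 0 that did not pass changed sign, such as that of COX4I1 with library size alone. Of 130 summary values, 120 stayed within their limits, and of 1312 values of single subunits, 1205 kept their side of the threshold, 61 lost the call and 46 gained one. Of the 26 subunits that passed, 13 did so in every fit, 14 in all 6 fits without 1 library and 15 under all 10 other settings. limma on log2(FPKM + 1) called 11 subunits higher, with medians of 0.0415 for complex I and 0.0183 for complex IV. The complex IV median (0.03) was 0.0174 with library size alone, 0.0188 without a filter and 0.0473 with protein-coding genes only, the last of which called 28 subunits higher. Leaving out each library gave complex I medians of 0.0258 (without parental library 1) to 0.0797, complex III medians of 0.0304 to 0.0755 (without parental library 1), 14 to 21 subunits higher and 4 (without resistant library 1) to 8 lower. The complex I median was 0.0325 without resistant library 3. The cause was not tested. The groups share replicate numbers 1 to 3, but no source used here says that the cultures were paired. Deviations of same-numbered samples correlated at −0.00806, −0.0196 and −0.0157 over 17142 genes. With 3 samples per group, these values cannot show whether same-numbered samples were handled together. With the replicate number as a block, 20 subunits were higher and 6 lower. Counting NDUFA4 and NDUFA4L2 with complex IV, chosen after seeing the data, left the medians of complexes I and IV at 0.0677 and 0.0334. NDUFA4 (0.25) lies above and NDUFA4L2 (−0.79) below both medians, so moving the pair could not change them.

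Depth limits subunits of low count. NDUFA4L2, NDUFV2, NDUFA7, COX7A1 and UQCRHL had intervals that reached beyond 1.5-fold, and of the tested members, 53 overlap another listed gene.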
